A study of Mus musculus with 16 samples.

Results

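The genes described here are 8 markers of alternatively activated or resident macrophages: Arg1, Chil3, Retnla, Mgl2, Mrc1, Cd209a, Cd163 and Ch25h. They were taken by gene symbol, without use of their values, from the 36722 genes of a deposited expression table of mouse dorsal root ganglia, and all 8 were found. Of these, 7 were among the 13385 genes expressed highly enough to be tested, and Retnla lay just under that limit.

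Dorsal root ganglia hold the cell bodies of the sensory neurons that supply skin, muscle and viscera, together with satellite glia, Schwann cells, vessels and resident macrophages. C57BL/6 mice had received 20 µl of 2% carrageenan, a seaweed polysaccharide that causes inflammation, into the hind paw. At 6 days an intrathecal injection, into the fluid around the spinal cord, delivered 1 µg of IL4-10 fusion protein (n = 6 libraries), the combination of 0.5 µg IL4 and 0.5 µg IL10 as separate proteins (n = 5), or the PBS vehicle (n = 5). Lumbar ganglia L3 to L5 were collected 6 hours later, and polyA-selected RNA was sequenced. Every group had carrageenan, so no ganglia of uninflamed mice enter any comparison, and no libraries of a single cytokine are analysed here. Nothing in the labels states that libraries of a group are separate mice, and p-values measure only the spread between libraries, which may in part be technical.

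IL-4 binds a receptor made of the IL-4 receptor alpha chain and a partner chain, and the attached Jak kinases then phosphorylate the transcription factor STAT6. In mouse macrophages STAT6 switches on a set of genes known as alternative activation markers, of which Arg1, Chil3, Retnla, Mrc1 and Mgl2 are textbook members. IL-10 acts through its own receptor and STAT3, and it is known to raise the scavenger receptor Cd163. Several of these genes are also made by macrophages that reside in tissues without any added cytokine.

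The deposited values are variance-stabilised and on a log2 scale. Each decodes exactly to a whole number, called a scaled value here, in which a gene that was not detected stands at 1. Scaled values had already been scaled between libraries and are not read counts, so the depth of each library is unknown. Their sum per library ran from 16707007 to 20879857. Differences are given as log2 differences on the deposited scale with the SE of limma. That scale compresses low values, so a ratio of scaled values is larger than such a difference implies. The sensory neuron markers were present as the tissue label states, with all 9 tested and summed scaled values of 194276 to 311995 in fusion protein, 212188 to 254254 in combination and 198926 to 271880 in vehicle libraries. Fusion protein replicate 1 held by far the highest myeloid values of its group, and combination replicate 5 had almost no genes at a scaled value of 2 (4 genes, against 1116 to 2772 in the other libraries). Combination replicate 1 likewise had 2 genes at a scaled value of 3, against 712 to 1214 in the others. For fusion protein replicate 1 and combination replicate 5, results are also given without them where they rest on them, and every library was left out in turn. The labels number the samples 1 to 8 and 12 to 19. The later numbers hold 2 of the 6 fusion protein libraries, all 5 combination libraries and 1 of the 5 vehicle libraries.

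The genes lie on separate chromosomes of build GRCm38. Arg1 spans chr10:24915221-24927484 on the minus strand, and Chil3 spans chr3:106147554-106167564 on the minus strand. Retnla spans chr16:48842551-48844461 and Mgl2 spans chr11:70130329-70137550, both on the plus strand. Mrc1 spans chr2:14229392-14332057 and Cd163 spans chr6:124304656-124330527, both on the plus strand. Cd209a spans chr8:3743397-3748984 and Ch25h, a gene of 1 exon, spans chr19:34473778-34475164, both on the minus strand. Of all 50-base words in their exons, 28.5% in Chil3 and 14.5% in Mgl2 also occur in another gene, chiefly Chil4 (17.9%) and Clec10a (13.5%). Reads of those stretches could have been split or dropped by the counting. In Cd163 the share was 0.0892%, and in the other 5 genes it was 0. Whether the counting used the strand is not given in the sources used here.

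Promoters were taken from RefSeq on GRCm38.p6 for 7 of the 8 genes, from 250 bases before to 50 bases after the start. The set of promoters used held none for Arg1, so Arg1 was not searched. Mgl2 and Cd163 are shown because their values separated the fusion protein from the combination. Chil3 and Retnla are shown because they alone of the 7 held a STAT-type palindrome. Sequences are written 5′ to 3′ on the strand of the gene, and capitals mark the palindrome.
Mgl2 promoter, chr11:70130107-70130406, plus strand: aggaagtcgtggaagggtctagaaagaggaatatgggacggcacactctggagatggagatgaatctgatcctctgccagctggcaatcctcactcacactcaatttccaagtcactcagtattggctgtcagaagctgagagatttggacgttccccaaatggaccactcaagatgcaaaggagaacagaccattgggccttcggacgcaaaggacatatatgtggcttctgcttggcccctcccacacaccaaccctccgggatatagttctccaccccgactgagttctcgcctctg
Cd163 promoter, chr6:124304401-124304700, plus strand: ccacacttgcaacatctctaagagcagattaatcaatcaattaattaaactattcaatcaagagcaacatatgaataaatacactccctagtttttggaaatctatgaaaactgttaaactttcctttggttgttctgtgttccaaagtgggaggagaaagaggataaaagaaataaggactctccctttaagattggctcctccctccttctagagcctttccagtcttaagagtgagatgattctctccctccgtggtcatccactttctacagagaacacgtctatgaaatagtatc
Chil3 promoter, chr3:106167515-106167814, minus strand: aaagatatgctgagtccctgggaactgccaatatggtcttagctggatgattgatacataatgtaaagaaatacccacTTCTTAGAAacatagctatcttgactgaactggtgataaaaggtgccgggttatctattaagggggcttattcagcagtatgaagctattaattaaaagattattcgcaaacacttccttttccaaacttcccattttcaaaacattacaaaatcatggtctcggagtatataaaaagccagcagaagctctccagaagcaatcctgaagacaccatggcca
Retnla promoter, chr16:48842359-48842658, plus strand: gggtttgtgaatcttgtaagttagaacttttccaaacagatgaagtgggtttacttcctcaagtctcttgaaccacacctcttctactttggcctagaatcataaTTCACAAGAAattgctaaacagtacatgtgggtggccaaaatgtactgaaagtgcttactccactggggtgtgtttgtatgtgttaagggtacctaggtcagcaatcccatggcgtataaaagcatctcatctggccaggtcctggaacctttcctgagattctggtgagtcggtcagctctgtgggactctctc
Both strands were searched for TTC and GAA with 4 bases between them, the spacing that STAT6 is known to favour, and for the same letters with 3 bases between them, the spacing that most STAT proteins favour. The first was found in Retnla, as TTCACAAGAA, 145 bases upstream of the start at chr16:48842464-48842473. The second was found in Chil3, as TTCTTAGAA, 172 bases upstream at chr3:106167728-106167736. Of 32851 promoters of the same length, 6.95% held the first motif and 8.3% held the second. The palindrome TGACGTCA, which CREB-type factors bind, stood 61 bases upstream in Ch25h at chr19:34475202-34475209 and in 1.79% of all promoters. A repeat of GAAA with 2 bases between the copies, the core of interferon-stimulated elements, was in none of the 7 windows and in 3.44% of all. These are matches of letters in a short window and say nothing about binding.

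With the fusion protein, Arg1 was higher and Mgl2 lower than with vehicle, so 2 textbook markers of the same activation state changed in opposite directions. With the combination, Mrc1, Mgl2, Cd163 and Cd209a, all cell-surface receptors, were modestly higher than with vehicle, in a comparison where 36.5% of all tested genes passed. Of these calls, only that of Cd209a held under each omission of 1 library, and none held without the limit on low genes. Set directly against each other, the fusion protein gave more Arg1 and less Mgl2 and Cd163 than the combination, and more Ch25h by a call that was lost in 10 of 11 omissions. Without the limit on low genes, the difference of Mgl2 between fusion protein and vehicle did not pass (adjusted p = 0.0516 by limma). Nor did those of Cd163 and Ch25h between the treatments (adjusted p = 0.0841 and 0.227 by limma).

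**Figure D1:**
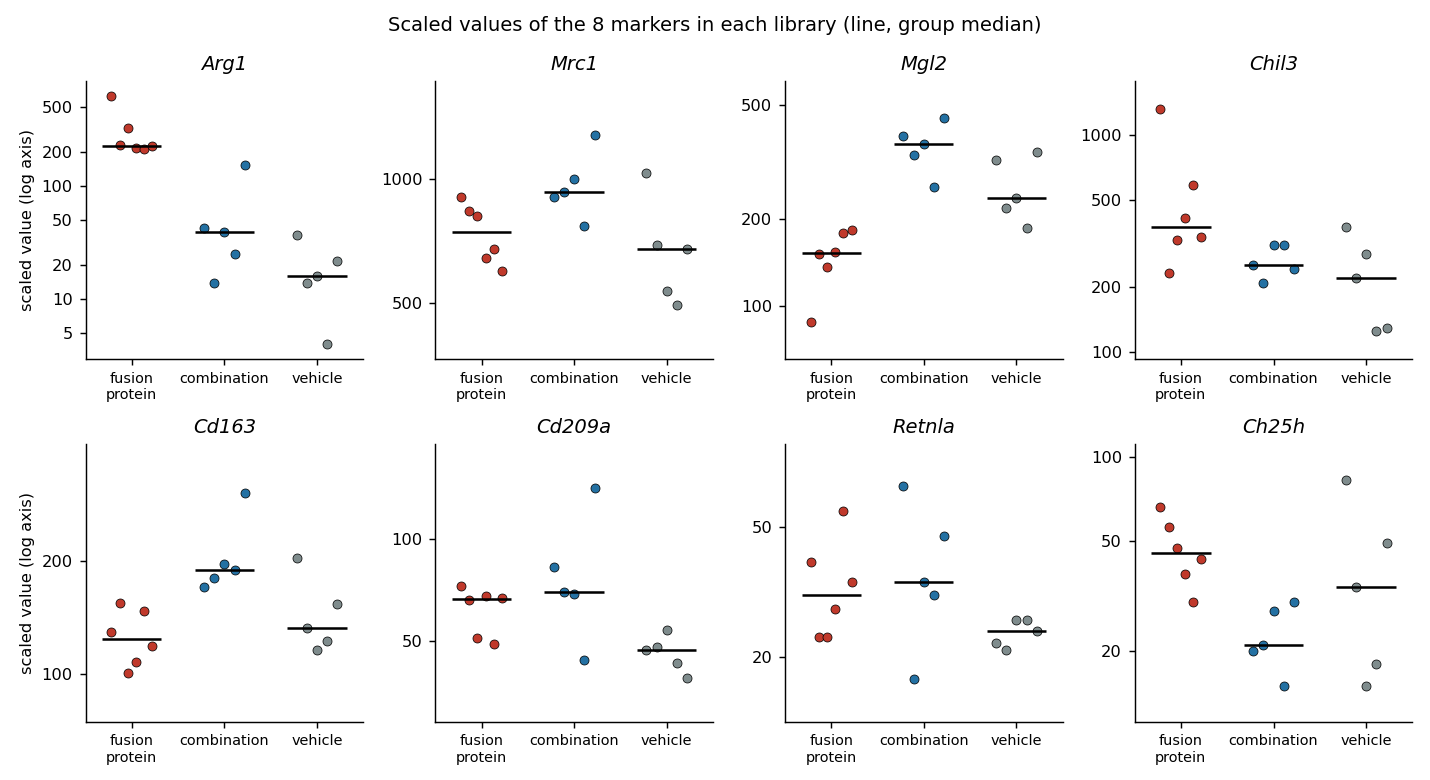
Scaled values of the 8 genes in each library (vertical axis, log scale), for fusion protein (n = 6), combination (n = 5) and vehicle (n = 5). Points are libraries and horizontal bars are group medians. Arg1 in fusion protein libraries lies at 211 to 629, above all others, and Mgl2 at 88 to 184, below all others.

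Arg1 encodes arginase, which splits arginine into urea and ornithine and so draws on the substrate of nitric oxide synthase. Its scaled values in replicates 1 to 6 were 629, 232, 327, 217, 211 and 225 with the fusion protein. They were 43, 14, 39, 25 and 153 with the combination and 37, 14, 16, 4 and 22 with vehicle. Every fusion protein library therefore lay above every library of the other groups, while the combination and vehicle overlapped except for combination replicate 5 and, by a small margin, combination replicates 1 and 3.

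Arg1 averaged 307 ± 164 with the fusion protein and 18.6 ± 12.2 with vehicle (SD, n = 6 and 5), a ratio of mean scaled values of 16.5. The vehicle values, at 4 to 37, lie near the floor of 1, so that ratio has a small and uncertain denominator. The log2 difference of Arg1 was 1.93 ± 0.25, with an adjusted p of 0.000123 by limma. The fusion protein exceeded the combination, at 54.8 ± 56.1 (SD, n = 5), by 1.49 ± 0.25 on the log2 scale (adjusted p = 0.00255 by limma). The combination exceeded vehicle by 0.44 ± 0.26, which did not pass (adjusted p = 0.197 by limma). Mean log2 values of Arg1 were 8.65 with the fusion protein, 7.17 with the combination and 6.72 with vehicle, where the limit for testing was 6.99. Arg1 thus entered the test largely through its fusion protein values. In a fit without that limit, fusion protein minus vehicle (adjusted p = 0.000863 by limma) and fusion protein minus combination (adjusted p = 0.0271) still passed. Among libraries numbered 1 to 8 only, fusion protein minus vehicle was 2.09 (adjusted p = 0.00484 by limma, n = 4 each). Among those numbered 12 to 19 it was 1.55 (adjusted p = 0.254, n = 2 and 1), and fusion protein minus combination was 1.21 (adjusted p = 0.0526, n = 2 and 5).

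In ganglion tissue, more cells of a type and more RNA per cell cannot be told apart, and markers of myeloid cells moved with Arg1. In fusion protein against vehicle libraries, 12.0% of all tested genes rose and 13.7% fell. Of 18 tested markers of all macrophages and monocytes, 13 rose and 0 fell there, with a median log2 difference of 0.64 against -0.02 over all tested genes. Their summed scaled values were 5947 to 16210 with the fusion protein, 4526 to 6484 with the combination and 3463 to 6140 with vehicle. All 10 tested markers of incoming monocytes rose, with a median of 1.16. Their sums were 2116 to 7984 with the fusion protein, 990 to 1450 with the combination and 777 to 1316 with vehicle. No marker of either list was at 1 in every library. Without fusion protein replicate 1 the counts were 12 of 18 and 10 of 10, with medians of 0.53 and 0.99. The part of these cells in the Arg1 difference was not tested.

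Of 11 tested genes that handle arginine, 4 rose and 0 fell with the fusion protein against vehicle, and likewise 4 and 0 with the combination. Of all tested genes, 25.8% and 36.5% passed in either direction. With GC and length trends removed, 2 rose in each comparison. Arg2, the mitochondrial arginase, averaged 143 ± 34.6 with the fusion protein, 137 ± 16.1 with the combination and 99.2 ± 14.9 with vehicle (SD). It was higher than in vehicle by 0.29 ± 0.09 on the log2 scale with the fusion protein (adjusted p = 0.0216 by limma) and by 0.27 ± 0.09 with the combination (adjusted p = 0.0308). Odc1, which makes polyamines from ornithine, rose by 0.37 ± 0.10 with the fusion protein (adjusted p = 0.0107 by limma). Oat, which turns ornithine toward proline and glutamate, was higher by 0.24 with either treatment, with an SE of 0.06 in each comparison.

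Chil3, also called Ym1, is a secreted chitinase-like protein of mouse macrophages and neutrophils. Its scaled values were 1313, 230, 328, 416, 586 and 339 with the fusion protein. They were 250, 208, 310, 311 and 240 with the combination and 375, 219, 281, 125 and 129 with vehicle. Of the fusion protein libraries, 3 exceeded every vehicle library, and replicate 1 stood far above the rest.

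Chil3 was higher with the fusion protein than with vehicle by 0.83 ± 0.30 on the log2 scale, which did not pass (adjusted p = 0.0581 by limma). Without fusion protein replicate 1 the difference was 0.57. The fusion protein differed from the combination by 0.62 ± 0.30 (adjusted p = 0.13), and the combination differed from vehicle by 0.21 ± 0.32 (adjusted p = 0.637). Replicate 1 of the fusion protein also had the highest sums of neutrophil and marrow markers (12705, against 3304 at the lowest of its group), which ran at 3733 to 5943 with the combination and 2353 to 6297 with vehicle. With all libraries, 25.8% of all tested genes passed in fusion protein minus vehicle. Of 12 tested neutrophil and marrow markers, 3 rose and 1 fell there, which is not far from that share. Without fusion protein replicate 1, 2 of these markers rose and 1 fell. Their part in the Chil3 values was not tested.

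The close relative Chil4 stood at 1 in every library. Chil1, a further chitinase-like gene, rose with the fusion protein against vehicle by 0.59 ± 0.17 (adjusted p = 0.0168 by limma). It ranged over 100 to 320 scaled units with the fusion protein, 74 to 172 with the combination and 67 to 116 with vehicle.

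Retnla, the secreted protein Fizz1 or Relm-alpha, is induced strongly by IL-4 in mouse macrophages. It had 39, 23, 23, 28, 56 and 34 with the fusion protein, 67, 17, 34, 31 and 47 with the combination and 22, 21, 26, 26 and 24 with vehicle. Vehicle libraries were tightly grouped, and the treated libraries scattered around and above them. Its mean log2 value, 6.98, fell just under the limit of 6.99 for testing. In a fit without that limit the log2 difference from vehicle was 0.15 with the fusion protein (adjusted p = 0.67 by limma) and 0.21 with the combination (adjusted p = 0.409). Its paralog Retnlb was at 1 in every library. Retnlg, made by neutrophils and marrow cells, differed between fusion protein and vehicle by 0.09 ± 0.20 (adjusted p = 0.782 by limma).

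Mgl2, also called CD301b, is a lectin receptor for galactose and N-acetylgalactosamine on dermal dendritic cells and alternatively activated macrophages. Its scaled values were 88, 152, 137, 154, 180 and 184 with the fusion protein, 391, 336, 367, 259 and 450 with the combination and 322, 220, 238, 186 and 344 with vehicle. Every fusion protein library lay below every library of both other groups, though the highest, 184, was close to the lowest vehicle library at 186. The combination and vehicle overlapped.

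Mgl2 averaged 149 ± 34.9 with the fusion protein, 361 ± 70.5 with the combination and 262 ± 67.9 with vehicle (SD, n = 6, 5 and 5). The log2 difference of the fusion protein was -0.53 ± 0.13 from vehicle (adjusted p = 0.0053 by limma) and -0.88 ± 0.13 from the combination (adjusted p = 0.00054). In a fit without the limit on low genes, the first did not pass (adjusted p = 0.0516 by limma) and the second did (adjusted p = 0.0218). The combination lay above vehicle by 0.35 ± 0.13, at the edge of the threshold (adjusted p = 0.048 by limma). That call was lost when any of 7 of the 10 libraries of these groups was left out, with differences of 0.27 to 0.43 over the omissions. In a fit with the later label numbers as a term, the combination difference was 0.08 (adjusted p = 0.697 by limma), while the fusion protein difference from vehicle was -0.58 (adjusted p = 0.00107). Among libraries numbered 1 to 8, the fusion protein difference from vehicle was -0.55 (adjusted p = 0.0196 by limma, n = 4 each). Among those numbered 12 to 19 the difference from vehicle was -0.65 (adjusted p = 0.0948, n = 2 and 1) and that from the combination was -0.68 (adjusted p = 0.00214, n = 2 and 5).

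The ratio of Arg1 to Mgl2 scaled values cancels a factor common to a library, though rounding and the floor of 1 affect low values. It was chosen after both genes were seen to separate the fusion protein libraries, so it describes that separation and adds no support to it. It was 7.15, 1.53, 2.39, 1.41, 1.17 and 1.22 with the fusion protein. It was 0.11, 0.0417, 0.106, 0.0965 and 0.34 with the combination and 0.115, 0.0636, 0.0672, 0.0215 and 0.0640 with vehicle. Arg1 exceeded Mgl2 in all 6 fusion protein libraries and in none of the 10 others.

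**Figure D2:**
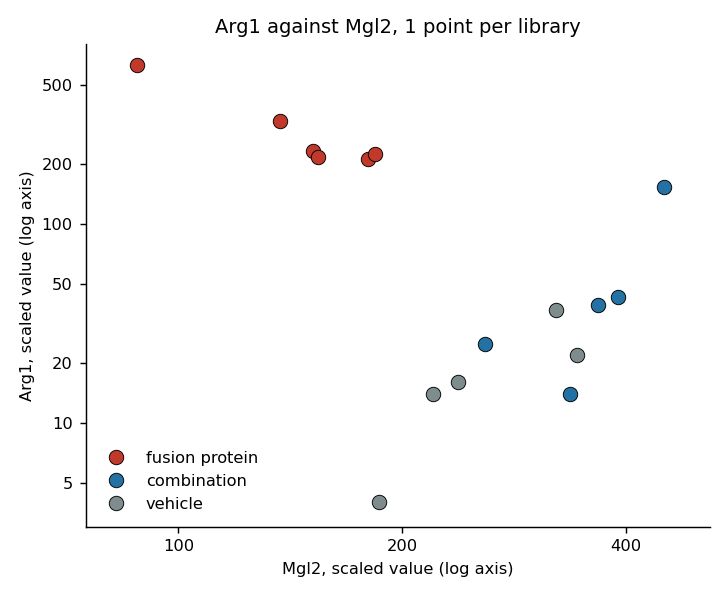
Arg1 (vertical axis) against Mgl2 (horizontal axis) scaled values, both on log axes, 1 point per library, for fusion protein, combination and vehicle. Fusion protein libraries form a group at the upper left, with Arg1 at 211 to 629 and Mgl2 at 88 to 184.

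The neighbouring paralog Clec10a, or Mgl1 was below the limit for testing. It had 18 to 64 with the fusion protein (median 24), 38 to 54 with the combination (median 43) and 12 to 24 with vehicle (median 18). All combination libraries lay above all vehicle libraries. In the fit without a limit the combination exceeded vehicle by 0.43 ± 0.13 on the log2 scale (adjusted p = 0.0484 by limma), and the fusion protein exceeded vehicle by 0.25 ± 0.12 (adjusted p = 0.323). Against vehicle, Clec10a was thus not lower with the fusion protein in these values, unlike Mgl2, with which it shares exon sequence. Against the combination it was lower, as Mgl2 was, by a difference of -0.18 ± 0.12 that did not pass (adjusted p = 0.58 by limma).

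Mrc1, the mannose receptor CD206, takes up mannose-bearing glycoproteins. Its scaled values were 904, 835, 815, 644, 675 and 599 with the fusion protein. The combination had 905, 930, 999, 768 and 1279, and vehicle had 1035, 690, 534, 494 and 676. All groups overlapped. The combination exceeded vehicle by 0.47 ± 0.15 on the log2 scale (adjusted p = 0.023 by limma), which was 0.37 and no longer passed without combination replicate 5 (adjusted p = 0.0677). The call was also lost without vehicle replicate 3 (0.40) or 4 (0.38). The fusion protein differed from vehicle by 0.13 ± 0.15 (adjusted p = 0.543) and from the combination by -0.34 ± 0.15 (adjusted p = 0.0832).

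Cd209a, the mouse DC-SIGN, is a lectin receptor of dendritic cells and some macrophages. It had 73, 66, 51, 68, 49 and 67 with the fusion protein, 83, 70, 69, 44 and 142 with the combination and 47, 48, 54, 43 and 39 with vehicle. The vehicle libraries sat low and close together, and combination replicate 5 was far above the rest of its group. The combination exceeded vehicle by 0.33 ± 0.11 on the log2 scale (adjusted p = 0.0207 by limma), and by 0.21 without combination replicate 5 (adjusted p = 0.0494). The fusion protein differed from vehicle by 0.18 ± 0.10 (adjusted p = 0.211) and from the combination by -0.15 ± 0.10 (adjusted p = 0.25).

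Its 6 relatives Cd209b to Cd209g were nearly silent, with no scaled value above 32. Cd209e had 1 to 5 with the fusion protein, 7 to 32 with the combination and 2 to 10 with vehicle, so fusion protein and combination libraries did not overlap. In the fit without a limit fusion protein minus combination was -0.41 ± 0.10 on the log2 scale, which did not pass (adjusted p = 0.0652 by limma). Of 10 tested dendritic cell markers, 2 rose and 0 fell with the fusion protein against vehicle, and 1 rose and 0 fell with the combination, below the 25.8% and 36.5% of all tested genes that passed. Without fusion protein replicate 1, 1 rose with the fusion protein.

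Cd163 is the scavenger receptor that takes up haptoglobin bound to haemoglobin. It had 130, 155, 101, 108, 148 and 119 with the fusion protein, 171, 181, 197, 190 and 305 with the combination and 204, 133, 116, 123 and 154 with vehicle. Every fusion protein library was below every combination library, and both overlapped vehicle. Fusion protein minus combination was -0.44 ± 0.11 on the log2 scale (adjusted p = 0.00904 by limma), and this passed under each omission of 1 library of these groups (-0.48 to -0.34). It did not pass with GC and length trends removed (-0.33, adjusted p = 0.0516) or without the limit on low genes (adjusted p = 0.0841). The fusion protein differed from vehicle by -0.11 ± 0.11 (adjusted p = 0.449).

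The combination exceeded vehicle in Cd163 by 0.33 ± 0.11 (adjusted p = 0.0268 by limma). Without combination replicate 5 the difference was 0.22 and no longer passed (adjusted p = 0.0828), and the call was also lost without vehicle replicates 2, 3 or 4 (0.31, 0.28 and 0.29). Hp, the haptoglobin that Cd163 binds in complex, averaged 559 ± 296 with the fusion protein, 156 ± 83.4 with the combination and 97.8 ± 62.0 with vehicle (SD). It rose with the fusion protein against vehicle by 1.69 ± 0.31 on the log2 scale (adjusted p = 0.00157 by limma). Hmox1, the enzyme that degrades haem, rose by 0.51 ± 0.16 (adjusted p = 0.03). Of 9 tested genes of haptoglobin and haem handling, 3 rose and 1 fell with the fusion protein, and 2 rose and 2 fell with the combination, both against vehicle, where 25.8% and 36.5% of all tested genes passed. Without fusion protein replicate 1, 2 rose and 2 fell with the fusion protein.

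Ch25h makes 25-hydroxycholesterol, an oxysterol that restrains sterol synthesis and is raised by interferons in mouse macrophages. It had 66, 56, 47, 38, 30 and 43 with the fusion protein, 20, 21, 28, 15 and 30 with the combination and 83, 34, 15, 18 and 49 with vehicle. Vehicle libraries spanned the range of both treatments. Of the fusion protein libraries, 5 exceeded every combination library and the sixth, at 30, matched the highest. The fusion protein exceeded the combination by 0.35 ± 0.12 on the log2 scale (adjusted p = 0.043 by limma). This call was lost in 10 of the 11 omissions of a library of these groups (0.30 to 0.39). It was also lost without the limit on low genes (adjusted p = 0.227 by limma). Mean log2 values of Ch25h were 7.18 with the fusion protein, 6.84 with the combination and 7.05 with vehicle. The combination mean lay below the limit for testing, so Ch25h entered the test through its fusion protein and vehicle values. Differences from vehicle were 0.13 ± 0.12 with the fusion protein (adjusted p = 0.447) and -0.21 ± 0.13 with the combination (adjusted p = 0.212).

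Over all tested genes, 12.0% rose in fusion protein minus vehicle, and 36.5% passed in combination minus vehicle. All 10 tested interferon-response genes rose with the fusion protein against vehicle, with a median log2 difference of 1.09, and 0 of 10 passed with the combination. Their summed scaled values were 8099 to 13962 with the fusion protein, 4105 to 5009 with the combination and 3310 to 6679 with vehicle. Their part in the Ch25h values was not tested. Of 13 tested oxysterol genes, 1 rose and 3 fell with the fusion protein, and 1 rose and 5 fell with the combination, both against vehicle, where 25.8% and 36.5% of all tested genes passed. Only 1 fell with the fusion protein when its replicate 1 was left out, and 3 fell with the combination without vehicle replicate 1. Cyp7b1, which clears 25-hydroxycholesterol, rose with the fusion protein by 0.31 ± 0.09 on the log2 scale (adjusted p = 0.0145 by limma). Abcg1, a sterol exporter, fell by 0.25 ± 0.06 with the fusion protein (adjusted p = 0.00589) and fell by 0.31 ± 0.06 with the combination (adjusted p = 0.00114).

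Over the 7 tested genes, fusion protein minus vehicle had 1 higher, 1 lower and 5 that did not pass, with a median log2 difference of 0.13 against -0.02 over all tested genes. In that comparison 25.8% of all tested genes passed in either direction, 12.0% upward and 13.7% downward, so a count of 2 in 7 is close to the background. The groups did not overlap for 2 of the 7, against 14.3% of all tested genes. Combination minus vehicle had 4 higher, 0 lower and 3 that did not pass, with a median of 0.33 against 0.06. There 36.5% of all tested genes passed, 24.2% of all upward and 12.3% downward, and the groups overlapped for all 7 where they did not for 23.0% of all tested genes. Fusion protein minus combination had 2 higher, 2 lower and 3 that did not pass, where 29.5% of all tested genes passed, 7.35% of all upward and 22.2% downward. The groups did not overlap for 3 of the 7, against 9.53% of all tested genes. The first 2 of these comparisons share the vehicle libraries, and each shares a treatment with the third.

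**Figure D3:**
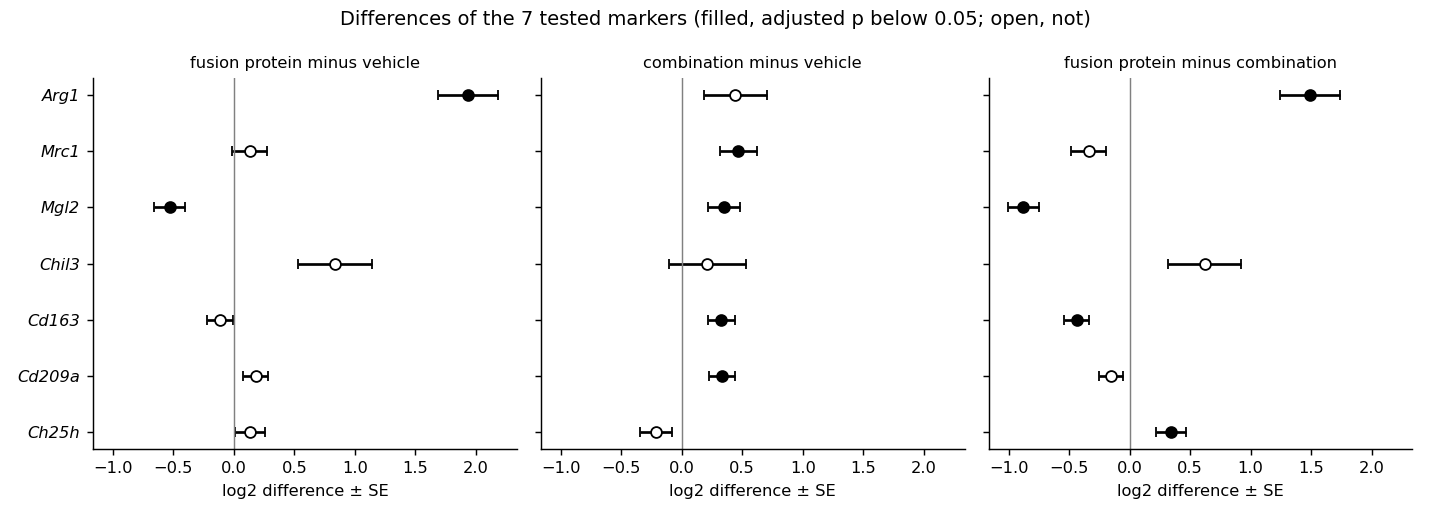
Log2 differences (horizontal axis) of the 7 tested genes in the 3 comparisons, with bars of 1 SE from limma. Filled points passed an adjusted p of 0.05. Arg1 lies farthest to the right with the fusion protein, at 1.93 against vehicle, and Mgl2 farthest to the left, at -0.88 against the combination.

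**Figure D4:**
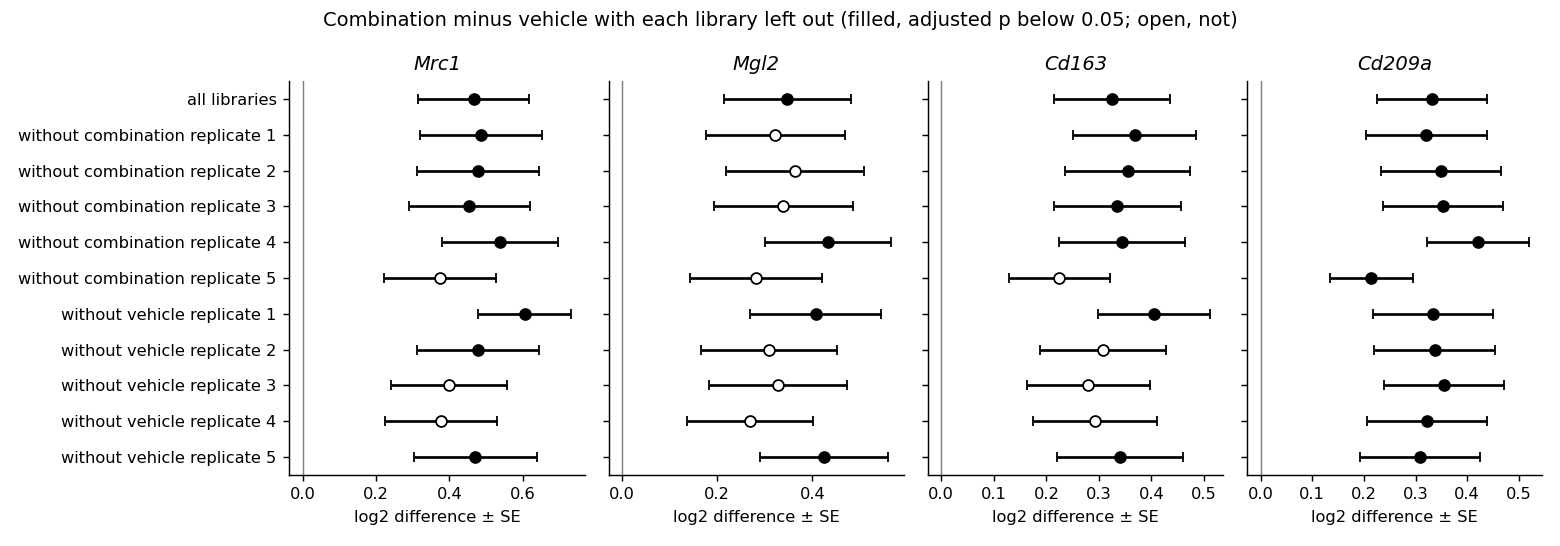
Log2 differences of combination minus vehicle (horizontal axis) for Mrc1, Mgl2, Cd163 and Cd209a with each library of these groups left out in turn (1 row each), with bars of 1 SE. Filled points passed an adjusted p of 0.05 by limma. Cd209a passed in all 10 omissions, Mrc1 in 7, Cd163 in 6 and Mgl2 in 3.

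Trends of each library with GC content and exonic length also bear on the combination. With these removed, Mgl2 kept a called difference from vehicle (0.33), while Mrc1 (0.34), Cd163 (0.20) and Cd209a (0.12) did not pass by limma.

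Levels compared between genes need division by exonic length, and the order of the 8 genes then depended on the treatment. Per kilobase of exon, Chil3 was highest with the fusion protein, at 328 ± 244 scaled units, followed by Arg1 at 138 ± 73.4 and Mrc1 at 117 ± 19.2 (SD, n = 6). Arg1 and Mrc1 did not differ there beyond their spread. With vehicle, Chil3 (138 ± 64.9), Mgl2 (125 ± 32.4) and Mrc1 (108 ± 33.5) were highest and did not differ beyond their spread, and Arg1 was lowest at 8.35 ± 5.46 (SD, n = 5). With the combination, Mgl2 (172 ± 33.7), Chil3 (162 ± 27.8) and Mrc1 (153 ± 29.7) led, and Ch25h was lowest at 16.4 ± 4.43. Arg1 thus ranked 2 of 8 with the fusion protein, 7 of 8 with the combination and 8 of 8 with vehicle. Mgl2 relative to Mrc1, as a ratio of scaled values, was 0.210 ± 0.0758 with the fusion protein, 0.370 ± 0.0365 with the combination and 0.392 ± 0.0847 with vehicle (SD).

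Of 11 tested receptor and signalling genes of IL-4, 4 rose, 3 fell and 4 did not pass with the fusion protein against vehicle, where 25.8% of all tested genes passed. With GC and length trends removed, 4 rose and 1 fell. Il4ra, the alpha chain, averaged 1562 ± 528 with the fusion protein, 818 ± 57.7 with the combination and 983 ± 238 with vehicle, and rose by 0.59 ± 0.16 on the log2 scale against vehicle (adjusted p = 0.0124 by limma). Its partner chains Il2rg and Il13ra1 rose by 0.51 ± 0.11 and 0.58 ± 0.16. With the combination 1 rose and 4 fell against vehicle, where 36.5% of all tested genes passed, and 2 rose and 2 fell with those trends removed. Irs2, an adaptor that IL-4 receptors phosphorylate, fell by 0.79 ± 0.12 with the combination (adjusted p = 6.36e-05 by limma) and fell by 0.44 ± 0.11 with the fusion protein (adjusted p = 0.00732).

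Of 15 tested further genes that IL-4 is known to induce in macrophages, 2 rose and 2 fell with the fusion protein against vehicle, and 0 rose and 4 fell with the combination. The shares are near or below the 25.8% and 36.5% of all tested genes. Il1rn, whose product blocks IL-1 signalling, averaged 559 ± 454 with the fusion protein, 57.2 ± 20.95 with the combination and 78.4 ± 47.3 with vehicle, and rose by 1.77 ± 0.32 on the log2 scale (adjusted p = 0.00138 by limma). Tgm2, a transglutaminase, rose by 1.20 ± 0.35 (adjusted p = 0.0227). Kdm6b, a histone demethylase, fell by 0.39 ± 0.09 with the fusion protein and fell by 0.64 ± 0.10 with the combination, both against vehicle.

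Over all tested genes, 25.8% passed in fusion protein minus vehicle, 12.0% of all upward, and 36.5% passed in combination minus vehicle. Of 12 tested markers of resident and perivascular macrophages, 2 rose and 1 fell with the fusion protein against vehicle, with a median of -0.03. Their sums were 4578 to 5568 with the fusion protein, 4629 to 5312 with the combination and 4910 to 5454 with vehicle, and none of the list was at 1 in every library. Mertk, a receptor for clearing dead cells, fell with the fusion protein by -0.52 ± 0.09 on the log2 scale (adjusted p = 0.000528 by limma), with 344 ± 31.7 against 546 ± 82.2 in vehicle. F13a1, a coagulation factor chain made by macrophages, rose by 0.99 ± 0.21. The sums of resident markers overlapped between all groups. Of 8 tested genes of classically activated macrophages, 4 rose and 0 fell with the fusion protein against vehicle, or 3 and 0 without its replicate 1, among them Cxcl9 and Cxcl10, chemokines that attract T cells, by 1.81 ± 0.24 and 1.29 ± 0.21. With the combination none of those 8 passed, and none of the 18 and 10 markers of all macrophages and of incoming monocytes did, against 2 and 1 when fusion protein replicate 1 was left out of the shared fit.

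**Figure D5:**
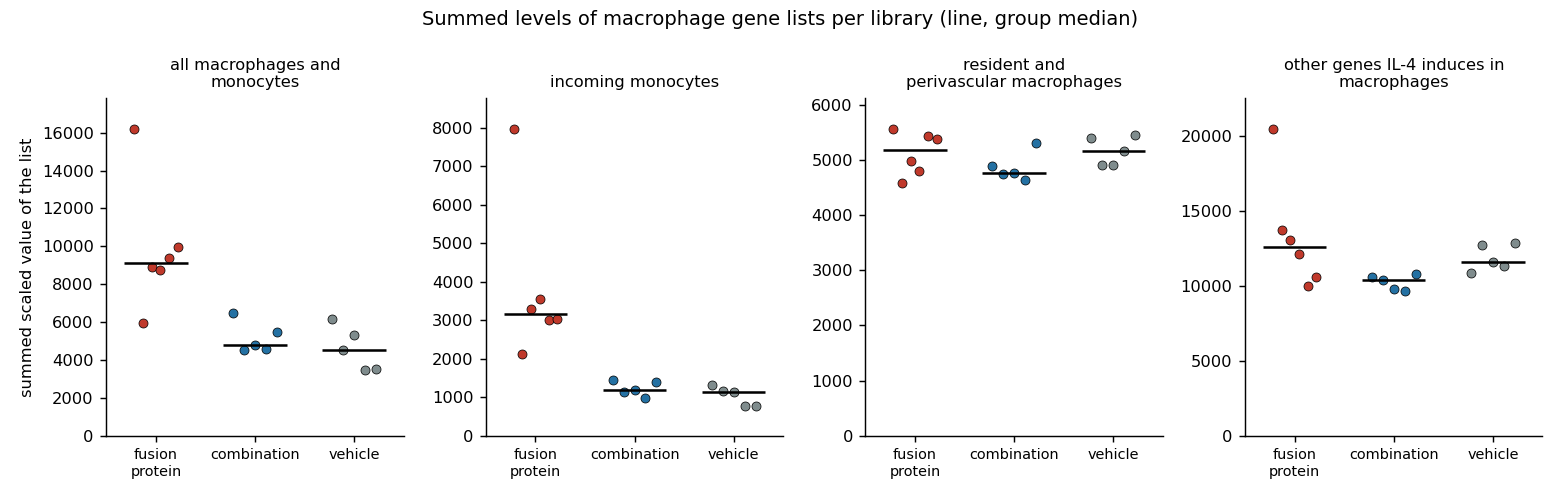
Summed scaled values of 4 marker lists per library (vertical axis, linear from 0), for fusion protein, combination and vehicle. Points are libraries and bars are group medians. Sums of incoming monocyte markers are 2116 to 7984 with the fusion protein, above the 777 to 1450 of the other libraries, while sums of resident macrophage markers overlap at 4578 to 5568.

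Among the 8 genes and beyond, likeness of pattern was measured as Pearson's r over the 16 libraries after each group's mean was subtracted, so that it reflects variation within groups. These libraries share scaling and tissue makeup, and the values are a description. The genes most like Arg1 were C3 (r = 0.935), Pdia4 (0.925) and Max (0.907). Without fusion protein replicate 1 and combination replicate 5 these fell to 0.762, 0.65 and 0.62. Those most like Mgl2 were Arhgap39 (0.926), Egfl8 (0.922) and Nagk (0.914). Genes like Cd163 included Zfp46 (0.935) and Ebna1bp2 (0.852). Those most like Chil3 were Arhgap30 (0.914), Arhgap9 (0.904) and Mmp8 (0.895). Mrc1 was most like Ch25h (0.888), Nek6 (0.872) and Rasgef1c (0.84), and Ch25h was most like Sorcs2 (0.929), Ybx3 (0.892) and Mrc1. Cd209a was most like Emg1 (0.857), Jagn1 (0.844) and G6pdx (0.835). Without fusion protein replicate 1 and combination replicate 5 these fell to 0.5, 0.535 and 0.745. Within groups, r between Mrc1 and Cd163 was 0.73, and 0.68 without fusion protein replicate 1 and combination replicate 5. Between Arg1 and Mgl2 it rested on those libraries, at 0.07 with them and 0.50 without them.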

How the data were processed

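The authors deposited log2 values after a variance-stabilising transform, and the GC content column they deposited is in percent, per the file headers. Per the submitters' processing notes, FastQC, STAR, HTSeq, DESeq2 and build GRCm38 were used, with no versions. The p-values deposited beside them name no comparison and were not used. With Y = 2^value and K = 2^lowest value, (Y - K)²/Y gave whole numbers within 0.01 for 100% of values. The lowest value (5.99) decodes to 0 and undetected genes (6.17) to 1. The scaling step behind these numbers is not given in the sources used here, so no counting interval is given.

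Genes with a mean at least 1 above the lowest value (6.99 on the log2 scale) were tested in 1 model of 16 libraries and 3 groups by limma 3.58.1 (R 4.3.3), with a mean-variance trend and robust moderation, in two-sided contrasts. P-values were adjusted by Benjamini and Hochberg's method over the 13385 genes, at 0.05. The GENCODE M21 annotation of GRCm38 gave positions and exonic lengths (36429 genes matched), and RefSeq on GRCm38.p6 gave the promoters. Python 3.11.15 was used for annotation and plots.

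The members, the marker lists and the alternatives were chosen with earlier results of these data known. Named are the 8 members, their paralogs, up to 4 genes of lowest p per list in fusion protein minus vehicle and list genes past 1 on the log2 scale, of which those that matter are given, and the 3 genes most like each member. Some genes that this rule names are not reported here. Some genes stand in more than 1 list. Alternatives were other filters, scalings and limma settings, a replicate block, GC and length trends, the late label number and omitted libraries.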

Additional observations from a re-analysis of the deposited data

Results flagged for a closer look

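Of the 24 groups of values screened for a library far from the others of its group, 2 were picked out, and chance picks out about 1 group in 20. Arg1 in fusion protein replicate 1 had a log2 value of 9.55, a scaled value of 629 where the other 5 libraries of its group had 211 to 327. Its gap over the group's range was 0.626, just above the limit of 0.625 for 6 libraries. Fusion protein replicate 1 also had the highest sums of macrophage (16210) and incoming monocyte markers (7984). Without it, Arg1 in fusion protein minus vehicle was 1.75 on the log2 scale and still passed.

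Cd163 in combination replicate 5 had a log2 value of 8.72, a scaled value of 305 where the other 4 libraries had 171 to 197. Its gap over the range was 0.77, above the limit of 0.71 for 5 libraries. Combination replicate 5 was also the highest of its group in Arg1, Mrc1, Mgl2 and Cd209a. Without it, the Cd163 difference from vehicle was 0.22 and no longer passed.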

How the results depend on the processing

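The absolute depth is unknown. Low genes such as Retnla, Ch25h and Cd209a lie near the compressed end of the scale, as does Arg1 with vehicle. Arg1 and Mgl2 in fusion protein minus vehicle, and both with Cd163 in fusion protein minus combination, kept their direction under every alternative run. The cause of the changes below was not tested, apart from the smaller number of genes or libraries that an alternative itself brings.

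The counts were 3450 genes and 2 members in fusion protein minus vehicle, 4891 and 4 in combination minus vehicle, and 3950 and 4 in fusion protein minus combination. Without a filter, where many near-constant genes enter, they were 1925 and 1, 3178 and 0, and 195 and 2. There Mgl2 in fusion protein minus vehicle had an adjusted p of 0.0516 by limma and Cd163 in fusion protein minus combination 0.0841. A stricter filter, which removes Arg1, Cd209a and Ch25h, left 1 and 2 members in the comparisons with the fusion protein first. Array weights gave 6106 genes in fusion protein minus vehicle and 6275 in fusion protein minus combination, and quantile normalization gave 2363 in fusion protein minus combination.

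With GC and length trends removed, combination minus vehicle had 1 member, and fusion protein minus combination had 2560 genes and 2 members. Cd209a (-0.044) and Ch25h (-0.037) in fusion protein minus vehicle and Chil3 (-0.12) in combination minus vehicle then changed direction. With the later label numbers as a term, combination minus vehicle had 2 members. Among label numbers 1 to 8 only, 2163 genes were called in fusion protein minus vehicle. Label numbers 12 to 19 hold 1 vehicle library, assumed to vary like the other groups, so their comparisons with vehicle say little. Counts were 247 and 1 (Chil3, 1.25, adjusted p = 0.00606 by limma) there and 764 and 0 in combination minus vehicle, and Mrc1 (-0.075) and Ch25h (-0.17) changed direction in fusion protein minus vehicle. Without fusion protein replicate 1 and combination replicate 5 together, chosen after seeing the data as were the label subsets, combination minus vehicle had 1 member and fusion protein minus combination 2354 genes.

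Leaving out each library in turn gave 2543 to 3659 genes and 2 to 3 members in fusion protein minus vehicle, 4033 to 5369 and 1 to 4 in combination minus vehicle, and 1999 to 5247 and 3 to 4 in fusion protein minus combination. The lowest count of the last, 1999, came without combination replicate 2. Chil3 in fusion protein minus vehicle passed under 10 of 27 alternatives, among them log2 of scaled values plus 1 (adjusted p = 0.0464 by limma).

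The replicate numbers did not pair the samples: deviations of same-numbered libraries correlated from -0.196 to 0.598, and in no pair of groups did every library correlate best with its own number. With the replicate block, 3216, 5195 and 3429 genes were called in the order above, and Chil3 passed in fusion protein minus vehicle (adjusted p = 0.0428 by limma). With the block and GC and length trends removed, combination minus vehicle had 1 member and fusion protein minus combination 2538 genes, and Cd209a (-0.051) and Ch25h (-0.010) in fusion protein minus vehicle and Chil3 (-0.12) in combination minus vehicle changed direction.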
